A study of Homo sapiens with 18 samples.

Results

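Oxidative phosphorylation genes encode the subunits of the respiratory chain and of ATP synthase, and in human cells they are split between the nuclear and the mitochondrial genome. They were chosen by symbol. Nuclear symbols were the NDUF genes of complex I, SDHA to SDHD of complex II and the UQCR genes of complex III. Added to them were COX5 to COX8 genes of complex IV, the ATP5 genes of complex V and the mitochondrially encoded subunits. COX4I1 of complex IV does not match the patterns and is not a member. Of 56629 symbols in the count tables, 146 matched these patterns, and 52 of them were left out because they end in P or in P and a number, as pseudogenes do. That left 94 members, 81 nuclear and 13 mitochondrial; MT-ATP6 and MT-ATP8 also end that way and were kept, since the patterns name the MT-ATP genes. Sorted by symbol, the nuclear members comprise 37 genes of complex I, 4 of complex II, 8 of complex III, 14 of complex IV and 16 of complex V. NDUFA4 thus counts under complex I by its name alone. ATP5S and ATP5SL are kept apart, since they carry ATP5 names without being subunits of the enzyme. The mitochondrial members comprise 7 genes of complex I, 1 of complex III, 3 of complex IV and 2 of complex V.

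The series tested what loss of ARID2 does to gene expression in human metastatic melanoma cell lines. ARID2 is a DNA-binding subunit of PBAF, a form of the SWI/SNF complex that moves nucleosomes. Polyadenylated RNA was sequenced from SKmel147, which carries NRAS Q61R, and from 501mel, which carries BRAF V600E. SKmel147 was taken as 5 lines and 501mel as 4, with 2 libraries each and 18 in all. In SKmel147 the control lines were Par, without a construct, and NT, stably infected with Lenti-Cas9 and a PLKO guide vector; the ARID2 knockout (KO) lines KO1.4 and KO1.5 and the KO line KO3.20 carried the same kinds of construct. In 501mel the control lines were Par, without a construct, and NTC, carrying Lenti-CRISPR V2 with Cas9 and a guide; the KO lines KO1.8 and KO5.2 carried that vector. NT and NTC are called transduced controls here. Neither the origin of the libraries in separate cultures nor the clonal or pooled nature of a line is stated, so the p-values rest on how these libraries vary, and that variation may be technical.

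In the respiratory chain, complexes I and II pass electrons from NADH and succinate to ubiquinone, complex III passes them on to cytochrome c, and complex IV reduces oxygen. Complexes I, III and IV pump protons across the inner mitochondrial membrane, and complex V, the ATP synthase, uses the return of those protons to make ATP. Complex II is built from nuclear genes alone, whereas the other complexes need mitochondrial genes. A dedicated RNA polymerase transcribes these as long precursors that are then cut into shorter RNAs. In melanoma, PPARGC1A, a coactivator that raises respiratory gene expression, is known as a target of the melanocyte factor MITF.

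Some members share bases, which bears on how they were counted. On the mitochondrial genome MT-ATP8 shares its end with the start of MT-ATP6, and MT-ND4L shares its end with the start of MT-ND4. These stretches are shown because a read from them belongs to more than 1 member. They were read from GRCh38, which is not the build named for the counts, at chrM:8513-8572 and chrM:8527-8586 for the ATP synthase genes and at chrM:10707-10766 and chrM:10760-10819 for the complex I genes. All are on the plus strand, and capitals mark the 46 shared bases of the former and the 7 shared bases of the latter.
MT-ATP8: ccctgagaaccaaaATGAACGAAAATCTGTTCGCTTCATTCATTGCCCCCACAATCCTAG
MT-ATP6: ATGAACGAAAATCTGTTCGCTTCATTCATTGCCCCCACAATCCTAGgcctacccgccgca
MT-ND4L: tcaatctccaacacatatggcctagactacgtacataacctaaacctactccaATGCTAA
MT-ND4: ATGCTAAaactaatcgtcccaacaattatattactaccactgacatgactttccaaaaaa

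Of the mitochondrial members, 12 are read from that strand and MT-ND6 from the other. The strand setting of the counting is not given in the sources used here, so for MT-ND6 reads of its own RNA and of RNA from the opposite strand cannot be told apart, and levels of the overlapping genes are uncertain in the same way. Members with near-identical copies elsewhere in the genome are uncertain too, since the treatment of reads with several matches is not given either.

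The nuclear promoters shown are those of UQCRFS1, UQCRC1, COX5A and COX5B, the members whose KO effect differed between SKmel147 and 501mel with the smallest p. Each is the 250 bases before the gene's start in RefSeq on GRCh38.p14: chr19:29213152-29213401, chr3:48609647-48609896 and chr15:74938074-74938323 on the minus strand and chr2:97645812-97646061 on the plus strand. Capitals mark matches to motifs of factors known to bind respiratory gene promoters.
UQCRFS1: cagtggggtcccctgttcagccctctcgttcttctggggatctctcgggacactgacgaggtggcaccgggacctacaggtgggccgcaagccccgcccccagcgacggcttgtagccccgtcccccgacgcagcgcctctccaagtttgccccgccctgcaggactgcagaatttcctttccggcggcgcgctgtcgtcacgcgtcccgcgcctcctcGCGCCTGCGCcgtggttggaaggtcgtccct
UQCRC1: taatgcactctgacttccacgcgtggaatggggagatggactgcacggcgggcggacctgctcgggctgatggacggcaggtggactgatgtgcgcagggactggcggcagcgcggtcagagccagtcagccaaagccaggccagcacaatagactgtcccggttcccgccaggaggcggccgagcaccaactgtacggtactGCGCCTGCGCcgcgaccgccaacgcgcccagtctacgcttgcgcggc
COX5A: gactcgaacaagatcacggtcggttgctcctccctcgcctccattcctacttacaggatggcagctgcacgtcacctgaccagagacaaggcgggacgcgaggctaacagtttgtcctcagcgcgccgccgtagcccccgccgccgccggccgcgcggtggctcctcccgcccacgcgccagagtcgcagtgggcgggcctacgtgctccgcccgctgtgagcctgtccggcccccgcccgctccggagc
COX5B: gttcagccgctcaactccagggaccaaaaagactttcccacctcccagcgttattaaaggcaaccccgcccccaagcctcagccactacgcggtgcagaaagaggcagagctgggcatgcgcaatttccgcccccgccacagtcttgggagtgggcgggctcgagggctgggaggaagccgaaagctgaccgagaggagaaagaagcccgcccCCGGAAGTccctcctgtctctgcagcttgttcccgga

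The search covered both strands for the NRF1 motif, which is GCGCA, a free base and GCGC, for its strict form, contained in it, with T as the free base, for CCGGAAGT (GABPA) and for AAGATGGC (YY1). RefSeq promoters were matched for 66 nuclear members, with 78 start sites. The NRF1 motif stood in 17.9% of these promoters and in 5.07% of all 35116 promoters of that table, CCGGAAGT in 14.1% and 3.42%, the strict NRF1 form in 3.85% and 1.03%, and AAGATGGC in 2.56% and 1.36%. UQCRFS1 and UQCRC1, which rose in 501mel KO lines, hold GCGCCTGCGC, a match to the NRF1 motif on the reverse strand, COX5B, which fell, holds CCGGAAGT, and COX5A, which rose, holds none of the motifs in this window. A match is a description of letters only.

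Library depth ranged from 21266522 to 35670140 counted reads in SKmel147 and from 16749707 to 20606855 in 501mel. Levels are given as CPM, counts divided by library size with TMM factors, a correction for library composition. ARID2 lay at 63.5 to 74.3 CPM in SKmel147 controls and 40.4 to 58.6 in its KO lines (log2 fold change ± SE -0.43 ± 0.08, adjusted p = 0.0039). KO1.4 alone did not pass (-0.25, adjusted p = 0.228). In 501mel the gene lay at 39.6 to 42.5 CPM in controls, 29.9 and 31.6 in KO1.8, and 19.0 and 20.3 in KO5.2 (-0.73 ± 0.05, adjusted p = 3.74e-08). Summed melanocytic markers reached 8944 to 9477 CPM in 501mel controls and 6613 to 9464 in its KO lines, but 168.5 to 268 and 174.5 to 239.7 in SKmel147, where MLANA stayed at or below 1.5 CPM and PMEL at or below 1.37. The sums of the 6 markers each of immune and endothelial cells stayed at or below 1.71 and 1.24 CPM in every library, and those of keratinocytes at or below 27.8, nearly all of it KRT10. The 6 fibroblast markers summed to 9.43 to 12.7 CPM in SKmel147 controls and 12.96 to 18.5 in its KO lines, without overlap, with DCN at 0 in every library; in 501mel the sums stayed at or below 2.07. In SKmel147, 1 of 2 fibroblast markers tested rose, COL1A1 (1.67 ± 0.21), and 1 of 2 keratinocyte markers, KRT14 (1.38 ± 0.19). In 501mel COL1A1 (-1.03 ± 0.37) and KRT10 (-0.20 ± 0.07) fell. Of 8 melanocytic markers 1 rose and 3 fell in 501mel, among the latter TYRP1 (-0.99 ± 0.04) and S100B (-0.62 ± 0.06). The part of these markers in the results was not tested. In bulk RNA, fewer cells of a kind and less RNA per cell cannot be told apart.

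Mitochondrial RNAs stood far above nuclear ones in both cell lines before any KO. The 13 mitochondrial members took 3.91 to 5.66% of all counts in SKmel147 libraries and 5.48 to 6.31% in 501mel libraries, whereas the 81 nuclear members together took 0.446 to 0.506% and 0.672 to 0.753%. Per kilobase of transcript, SKmel147 controls ranged from 1829 CPM for MT-ATP8 to 8350.1 for MT-ATP6, and 501mel controls from 703 for MT-ND6 to 10883.5 for MT-ATP6. Among nuclear members ATP5B, the catalytic beta subunit of ATP synthase, lay at 204 CPM per kilobase in SKmel147 and 409.9 in 501mel. UQCRH, a hinge protein of complex III, lay at 259 and 394.5, and NDUFA3 of complex I at 369 and 319. NDUFV2, a core subunit of complex I, was listed at 1.56 and 1.02 CPM per kilobase, the lowest of the 75 nuclear members above 0.5 in both cell lines. It had 6 to 70 reads per library. Whether this level reflects the counting of reads with several matches was not tested.

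Without KO, 501mel held more nuclear respiratory RNA than SKmel147. In the joint fit of all libraries 48 of 77 tested nuclear members were higher and 12 lower in 501mel controls, the latter with COX7A1, which was tested through its SKmel147 counts alone (median log2 difference 0.48), where 80.7% of all genes tested were called in either direction, 37.6% higher and 43.1% lower. Adjusted p values throughout come from edgeR's quasi-likelihood test with Benjamini-Hochberg (BH) adjustment over all genes tested, with a gene called under 0.05, unless another tool is named. The labels name no batch, and cell line and any batch that goes with it cannot be told apart here.

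NDUFS7, an iron-sulphur subunit of complex I, was higher in 501mel, from 4.97, 7.71, 7.93 and 10.4 CPM in SKmel147 controls to 26.1, 26.3, 30.8 and 32.1 in 501mel controls (log2 difference 1.92 ± 0.13, adjusted p = 3.1e-10). SDHB, the iron-sulphur subunit of complex II, lay at 47.0 to 60.4 CPM against 153 to 158 (1.48 ± 0.06, adjusted p = 8.13e-13). NDUFV3, a small complex I subunit, differed by 1.56 ± 0.09 and ATP5B by 1.02 ± 0.06. In none of these did the control libraries of the cell lines overlap.

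Lower in 501mel were UQCRFS1, the Rieske iron-sulphur protein of complex III (-0.91 ± 0.07, adjusted p = 1.04e-09), ATP5SL (-0.78 ± 0.08), NDUFA1, a membrane-arm subunit of complex I (-0.75 ± 0.08), and COX6B1, a complex IV subunit facing the intermembrane space (-0.66 ± 0.07). The mitochondrial members divided evenly. The complex IV genes MT-CO2 (0.98 ± 0.10), MT-CO1 (0.94 ± 0.11) and MT-CO3 (0.64 ± 0.10) were higher in 501mel controls, as were MT-CYB of complex III (0.73 ± 0.12), MT-ND4 (0.57 ± 0.10) and MT-ATP6 (0.38 ± 0.12). Lower were MT-ND6 (-1.50 ± 0.09), MT-ATP8 (-1.28 ± 0.26), MT-ND5 (-0.81 ± 0.12), MT-ND2 (-0.74 ± 0.12), MT-ND3 (-0.60 ± 0.08) and MT-ND4L (-0.51 ± 0.14), while MT-ND1 did not pass (-0.23 ± 0.11, adjusted p = 0.0522). The overlapping genes MT-ATP6 and MT-ATP8 thus took opposite signs, as did MT-ND4 and MT-ND4L. The part of read counting in these opposite signs was not tested.

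**Figure D1:**
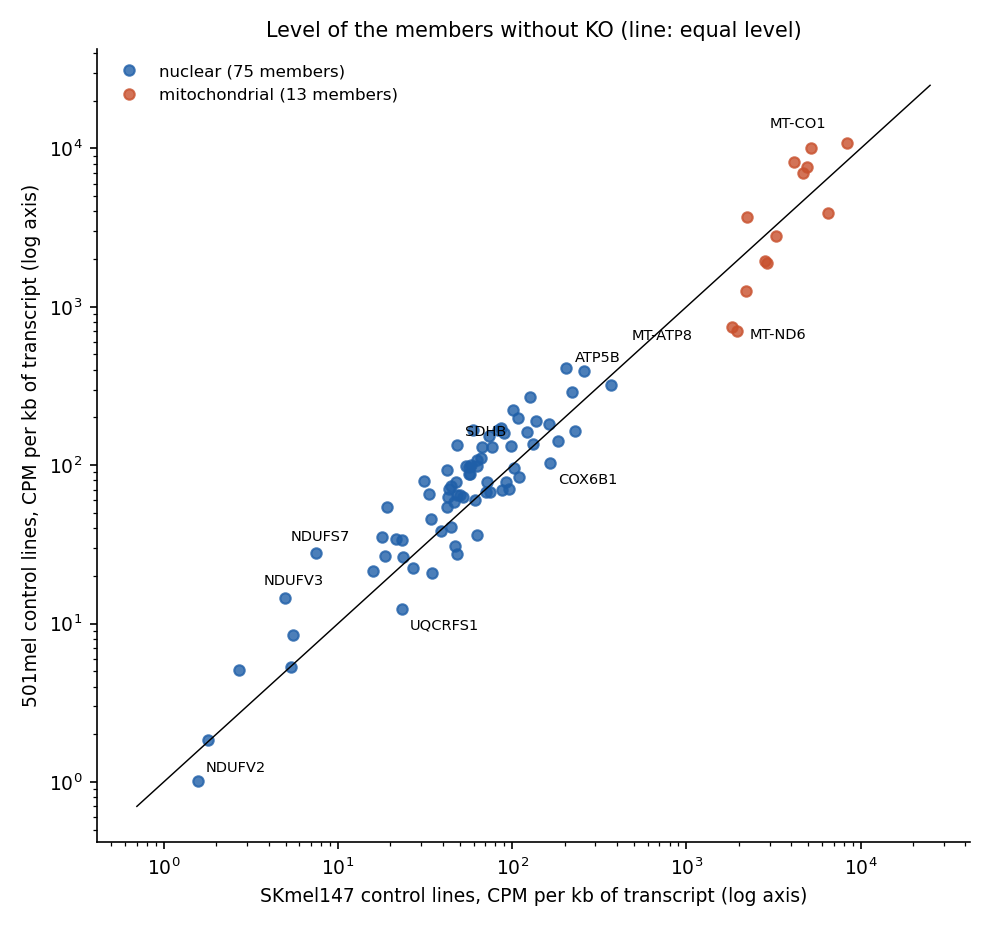
Level of each member in the control lines of SKmel147 (x axis) and 501mel (y axis), in CPM per kilobase of transcript on log axes, for the 75 nuclear and 13 mitochondrial members above 0.5 CPM per kilobase in both; the line marks equal levels. Mitochondrial members form a group of their own at the top right, and most nuclear members lie above the line.

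Some members with known tissue restriction were close to absent. COX6A2, the muscle form of its subunit, had counts in 1 library only, 501mel KO1.8, at 0.0477 CPM. COX6B2 stayed at or below 0.338 CPM, COX8C at or below 0.0964 and ATP5L2 at or below 0.172. COX7A1, another muscle form, lay at 0.143 to 0.652 CPM in SKmel147 and had 0 counts in every 501mel library. COX7B2, a form of COX7B known from testis, had 0 counts in SKmel147, 0 to 0.230 CPM in 501mel controls, 1.46 and 1.62 in KO1.8, and 0 and 0.0488 in KO5.2. Its KO1.8 value was 29 and 34 reads, the only libraries with more than 4. COX7B2 was tested only because of these reads and COX7A1, between the cell lines, only because of those in SKmel147. Their differences are thus described without a test, and where a count of calls holds either, that call was fixed by the filter.

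In 501mel, ARID2 KO lines carried more RNA of many nuclear members and less of several mitochondrial ones. Of 76 nuclear members tested, 32 rose and 4 fell, with a median log2 fold change of 0.12 against -0.01 over all genes; 51.3% of all genes tested were called, 24.7% higher and 26.5% lower. Of 13 mitochondrial members 2 rose and 6 fell, with a median of -0.07. By sign alone 62 nuclear members were above 0 and 14 below. In KO1.8 alone 25 nuclear members rose, among them COX7B2, which was tested through KO1.8 alone, and 6 fell, where 40.2% of all genes were called, 20.1% in each direction. In KO5.2 alone 39 rose and 7 fell, where 53.5% of all genes were called, 26.5% higher and 27% lower. Called in the comparison and in each KO line were 17 nuclear members that rose, where 12.3% of all genes did, and 3 that fell, where 11.7% did.

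**Figure D2:**
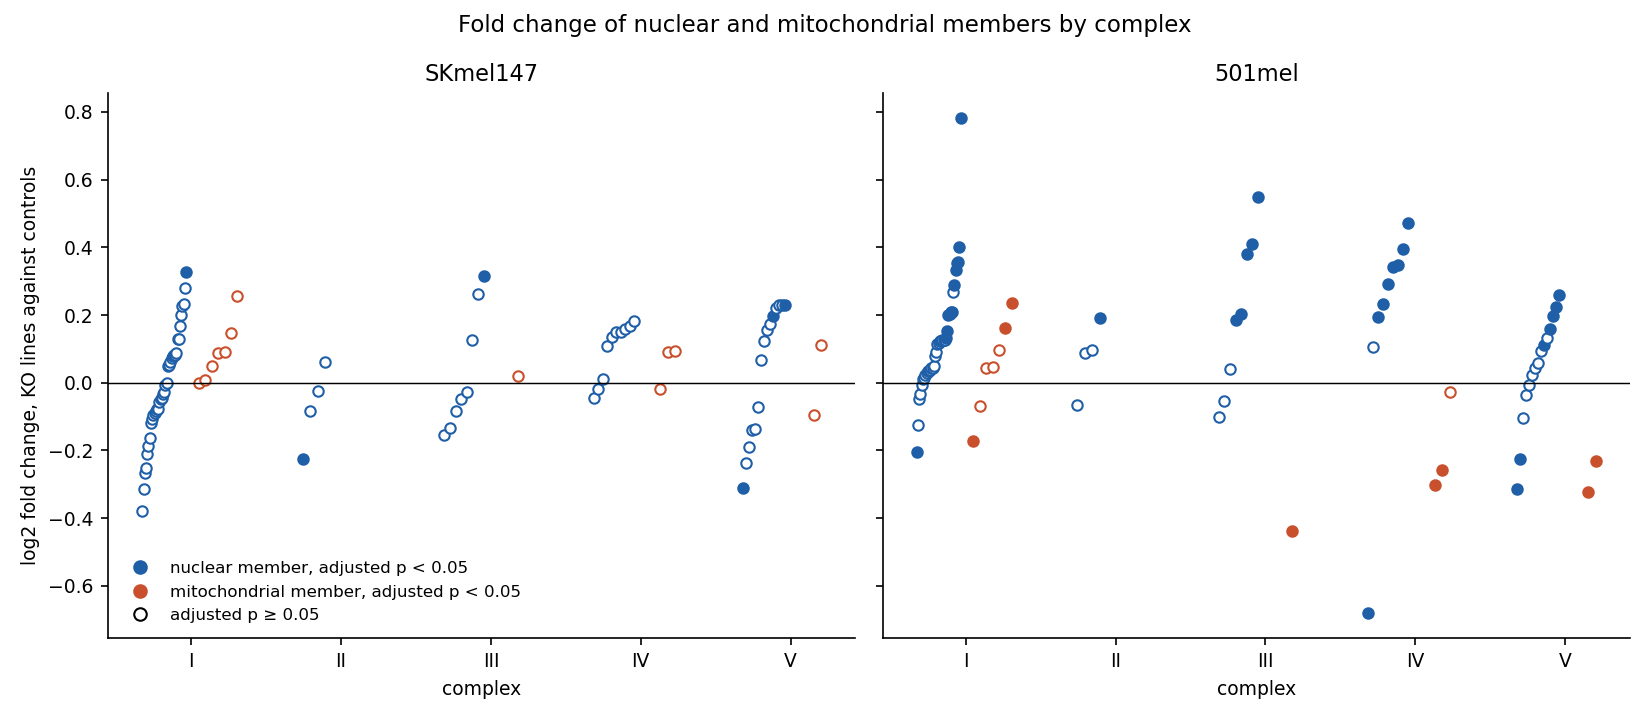
Log2 fold change of KO lines against controls (y axis) for the members of each complex (x axis), nuclear in blue and mitochondrial in orange, filled where the adjusted p was under 0.05; ATP5S, ATP5SL and COX7B2 are not drawn. In 501mel most filled nuclear points lie above 0 with COX5B lowest at -0.68, while the filled mitochondrial points of complexes III, IV and V lie below 0.

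Within complex I, 12 of 37 nuclear members rose and 1 fell, where 24.7% of all genes tested rose and 26.5% fell. NDUFA1 had 16.9 and 19.1 CPM in Par, 13.7 and 13.8 in NTC, 18.3 and 21.5 in KO1.8, and 37.0 and 36.3 in KO5.2. KO5.2 stood well above every other line, and KO1.8 overlapped with Par. The log2 fold change was 0.78 ± 0.07 (adjusted p = 2.54e-07), with 0.33 ± 0.08 in KO1.8 and 1.23 ± 0.08 in KO5.2. NDUFS7 had 30.8 and 32.1 CPM in Par, 26.1 and 26.3 in NTC, 39.9 and 32.8 in KO1.8, and 38.5 and 40.2 in KO5.2. All its KO libraries lay above all controls (0.40 ± 0.06, adjusted p = 0.000118). NDUFA3 (0.36), NDUFB7 (0.35), NDUFB3 (0.33) and NDUFS6 (0.29) also rose in each KO line, all of them accessory subunits of the enzyme.

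NDUFB1, an accessory subunit, was the nuclear complex I member that fell, with 28.5 and 33.9 CPM in Par, 26.2 and 24.9 in NTC, 31.4 and 29.3 in KO1.8, and 21.0 and 18.4 in KO5.2. Only KO5.2 lay below the controls, and the value of -0.21 ± 0.07 (adjusted p = 0.0234) became 0.10 without the KO5.2 line. The gene lies on chromosome 14, whose genes had a median of -0.41 in KO5.2. The call was lost without Par replicate 2 (adjusted p = 0.117), NTC replicate 1 (0.0878), KO1.8 replicate 2 (0.071) or KO5.2 replicate 2 (0.114).

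Complex II changed little. SDHB had 153 and 155 CPM in Par, 158 and 157 in NTC, 166 and 177 in KO1.8, and 180.1 and 186 in KO5.2, with every KO library above every control (0.19 ± 0.04, adjusted p = 0.000621). SDHA, the flavoprotein that oxidises succinate, had a value of 0.09 ± 0.04 (adjusted p = 0.091). SDHD, a membrane anchor, had -0.25 ± 0.06 in KO1.8 and 0.11 ± 0.06 in KO5.2, and its chromosome 11 had a median of -0.26 in KO1.8.

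In complex III 5 of 8 nuclear members rose and none fell, where 24.7% of all genes tested rose and 26.5% fell. UQCRFS1 had 43.9 and 51.5 CPM in Par, 37.6 and 39.3 in NTC, 58.4 and 63.0 in KO1.8, and 63.6 and 65.5 in KO5.2. The KO lines lay above all controls, and NTC lay below Par (-0.31 ± 0.08, adjusted p = 0.0134). The KO fold change was 0.55 ± 0.05 (adjusted p = 9.54e-07), with 0.49 in KO1.8 and 0.60 in KO5.2. UQCRC1, a core protein of the complex, had 182 and 179 CPM in Par, 173 and 159 in NTC, 206 and 204 in KO1.8, and 262 and 252 in KO5.2. Again no KO library overlapped with a control (0.41 ± 0.04, adjusted p = 1.7e-06), and KO5.2 was 0.35 ± 0.06 above KO1.8. UQCR10, a small subunit, gained 0.38 ± 0.06 without overlap. UQCRB, which lies on chromosome 8 and binds ubiquinone, gained 0.20 ± 0.04 in the comparison, but 0.41 ± 0.05 in KO5.2 and -0.01 ± 0.05 in KO1.8; chromosome 8 had a median of 0.33 in KO5.2.

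Complex IV had the largest fall beside a general rise. Of 10 nuclear members tested, COX7B2 among them, 7 others rose and only COX5B fell. Over all genes tested 24.7% rose and 26.5% fell. COX5B, a zinc-binding subunit on the matrix side, had 68.4 and 76.6 CPM in Par, 68.1 and 71.0 in NTC, 43.0 and 45.8 in KO1.8, and 45.0 and 43.3 in KO5.2. The KO lines lay below all controls and close to each other, at -0.69 ± 0.06 and -0.67 ± 0.06 (together -0.68 ± 0.05, adjusted p = 4.42e-08), and NTC differed from Par by -0.06 ± 0.07. COX5A, also a subunit on the matrix side, went the other way, from 121 and 131 CPM in Par and 104 and 103 in NTC to 139 and 143 in KO1.8 and 159 and 162 in KO5.2. Its KO libraries did not overlap with controls (0.39 ± 0.04, adjusted p = 1.47e-06).

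COX6B1 had 61.98 and 67.9 CPM in Par, 48.2 and 54.7 in NTC, 73.5 and 81.4 in KO1.8, and 83.8 and 82.3 in KO5.2, again without overlap (0.47 ± 0.05, adjusted p = 2.72e-06). COX7A2 (0.35), COX7B (0.34) and COX6A1 (0.19) rose in each KO line. COX6C and COX8A rose in the comparison (0.29 and 0.23) but by 0.07 ± 0.06 and 0.00 ± 0.08 in KO1.8, missing the threshold there. The call of COX8A was lost without NTC replicate 2 (adjusted p = 0.0531) or KO1.8 replicate 2 (0.0508), and against Par alone both missed the threshold (0.0835 for COX8A and 0.297 for COX6C).

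Among nuclear members of complex V, 5 of 15 tested rose and 2 fell, where 24.7% of all genes tested rose and 26.5% fell. ATP5B had 742 and 788 CPM in Par, 744 and 741 in NTC, 589 and 648 in KO1.8, and 653 and 686 in KO5.2. All KO libraries lay below the controls (-0.23 ± 0.04, adjusted p = 0.00023). ATP5G2, a gene for the proton-carrying c subunit of the rotor ring, had 111 and 109.6 CPM in Par, 106 and 101 in NTC, 84.0 and 87.4 in KO1.8, and 87.9 and 84.2 in KO5.2, also without overlap (-0.31 ± 0.04, adjusted p = 1.79e-05). ATP5G1 and ATP5G3, which encode the same mature c subunit, rose by 0.20 ± 0.06 and 0.22 ± 0.05. Neither passed against Par alone (adjusted p = 0.57 and 0.0597), and the ATP5G1 call was also lost without Par replicate 1 (0.0523), NTC replicate 1 (0.055), KO1.8 replicate 2 (0.0547) or KO5.2 replicate 2 (0.0576). ATP5E, the epsilon subunit of the stalk, gained 0.26 ± 0.05 (adjusted p = 0.000652) with 131 and 155 CPM in Par, 109 and 113 in NTC, 141 and 154 in KO1.8, and 155 and 152 in KO5.2. Its KO range overlapped with Par, against which alone it gave 0.08 (adjusted p = 0.366). ATP5E lies on chromosome 20, whose genes had a median of 0.25 in the comparison. ATP5S and ATP5SL rose by 0.26 ± 0.08 and 0.19 ± 0.05, in KO1.8 more than in KO5.2. Without the KO1.8 line they gave 0.08 each and were not called (adjusted p = 0.571 and 0.307), and ATP5S also lost its call without NTC replicate 2 (0.0625) or KO5.2 replicate 2 (0.0536).

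**Figure D3:**
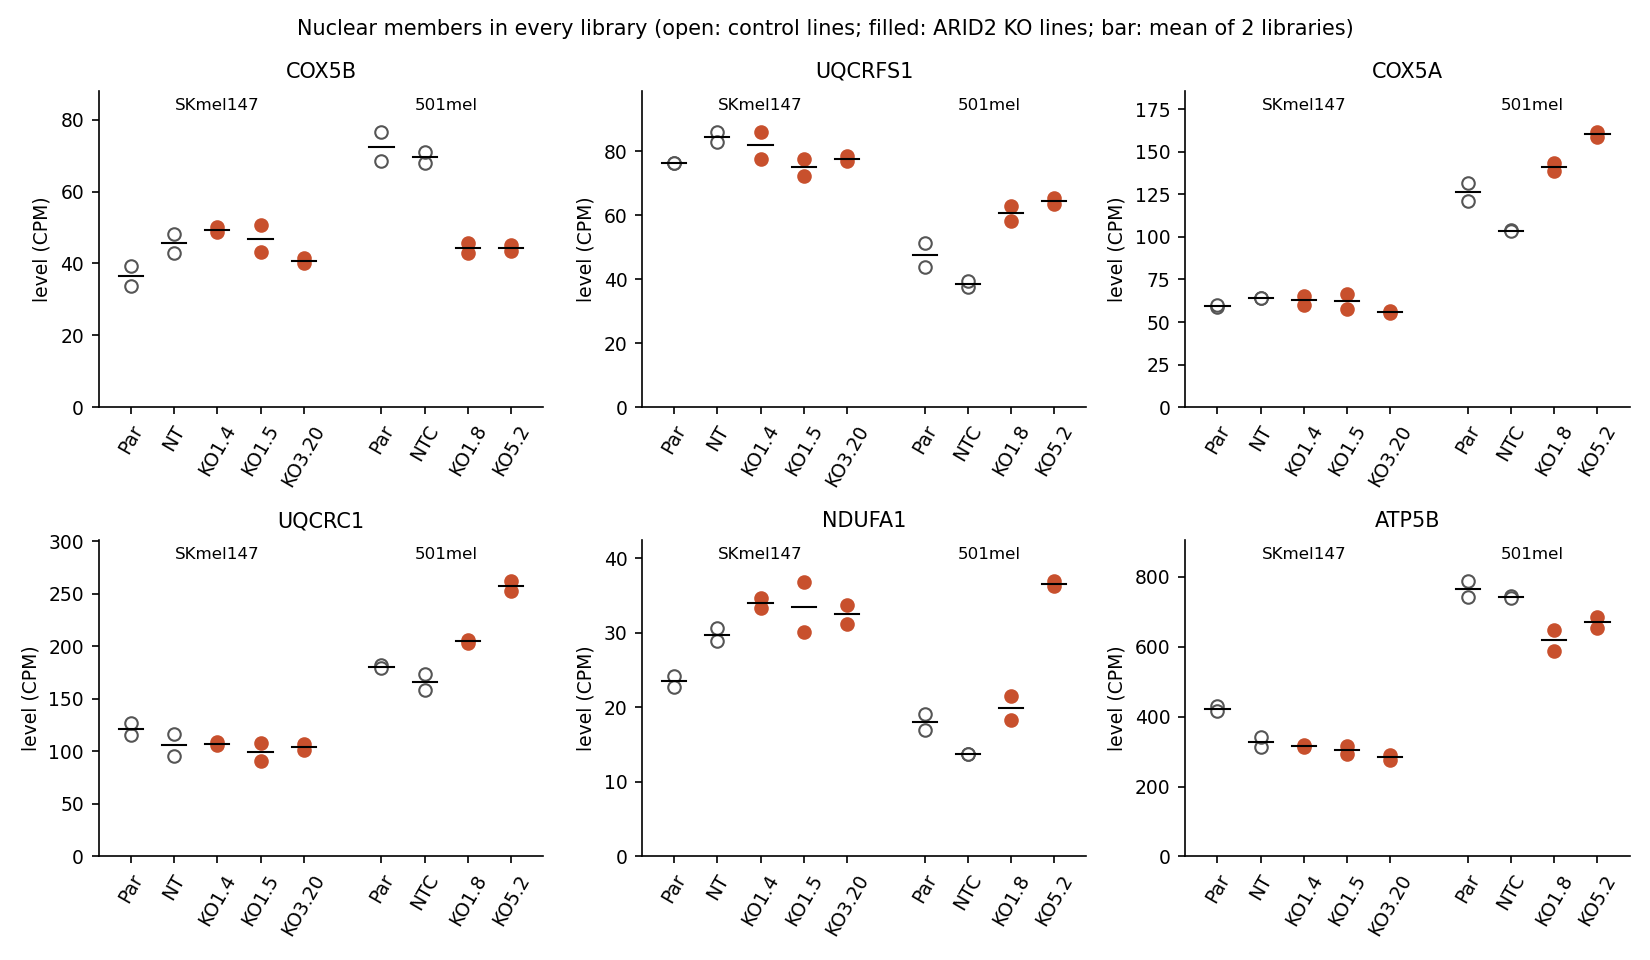
Level in CPM (y axis, from 0) of 6 nuclear members in every library of each line (x axis), with open points for control lines, filled points for ARID2 KO lines and a bar for the mean of 2 libraries. In 501mel the KO libraries of COX5B and ATP5B lie below all controls and those of UQCRFS1, COX5A and UQCRC1 above all, while in SKmel147 KO and control libraries of each gene overlap.

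Several limits bear on the 501mel counts. The transduced control lay below Par for 16 of the 17 nuclear members called between them (15.7% of all genes called, 6.77% higher and 8.93% lower), and the counts moved with the choice of control: 20 nuclear members rose against Par alone, where 18.1% of all genes did, and 39 against NTC alone, where 23.9% did. With the counts of a line summed to 1 value, edgeR called 0 of 17114 genes (2360 at an unadjusted p under 0.05) and thus no member (unadjusted p under 0.05 for 10 nuclear members higher and 2 lower, and for 2 mitochondrial members lower), and limma's voom, with the line as block, called 942 of 16230 genes, among them UQCRFS1 higher and COX5B lower. Of the 36 nuclear calls, 25 had the sign of their chromosome's median, and 35 kept their sign when that median was subtracted. A kept sign does not tell the size that remained. The median was 0.25 on chromosome 20, which holds ATP5E, and 0.23 on chromosome 15, which holds COX5A. Chromosome 19, with UQCRFS1, COX6B1 and NDUFS7, had 0.16. Over the 76 nuclear members the median log2 fold change was 0.12 before and after the subtraction. The part of such chromosome shifts in single calls was not tested.

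All KO libraries lay above all controls for 13 of 76 nuclear members and below for 3, where 27% of all genes did not overlap in either direction. For the mitochondrial members these counts were 0 and 3 of 13.

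Mitochondrial members did not move as a block in 501mel. The 3 without overlap were MT-CO2 and MT-CO3 of complex IV and MT-ATP6 of complex V, neighbours on the genome. MT-CO3 had 6221 and 5728 CPM in Par, 6081 and 5892 in NTC, 4780.0 and 4815 in KO1.8, and 4801 and 4973 in KO5.2 (log2 fold change -0.30 ± 0.04, adjusted p = 1.13e-05). MT-ATP6 had 7525 and 6687 CPM in Par, 8083 and 7352 in NTC, 5896 and 5661 in KO1.8, and 6179 and 5909 in KO5.2 (-0.32 ± 0.05, adjusted p = 5.18e-05). MT-CO2 had 5933 and 5559.7 CPM in Par, 5708 and 5355 in NTC, 4693 and 4566 in KO1.8, and 4759 and 4820.1 in KO5.2 (-0.26 ± 0.04, adjusted p = 6.87e-05). In each of these the KO lines lay close together and below both controls. MT-ATP8, which overlaps MT-ATP6, also fell in both KO lines (-0.23 ± 0.06), and its levels were 179.7 and 152 CPM in Par, 131 and 154 in NTC, 133 and 131 in KO1.8, and 133 and 127 in KO5.2, overlapping with NTC, against which alone it was not called (-0.12, adjusted p = 0.166).

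MT-ND1, the membrane subunit of complex I nearest to the ubiquinone site, rose in both KO lines (0.24 ± 0.04, adjusted p = 0.000114). It had 2454 and 2409 CPM in Par, 2824 and 2979.6 in NTC, 3445 and 3266 in KO1.8, and 2978 and 2845 in KO5.2. KO5.2 overlapped with NTC, which itself lay above Par by 0.25 ± 0.05 (adjusted p = 0.00551). Against NTC alone the rise of MT-ND1 did not pass (0.11, adjusted p = 0.0605).

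The other mitochondrial changes differed between the KO lines. MT-CYB, cytochrome b of complex III, had 4853 and 4270.4 CPM in Par, 3958 and 3749 in NTC, 4203 and 3936 in KO1.8, and 2408 and 2282 in KO5.2. Only KO5.2 lay below the controls, at -0.83 ± 0.06 (adjusted p = 4.53e-08) against -0.05 ± 0.06 in KO1.8, and the value over both, -0.44 ± 0.05, was no longer called without the KO5.2 line (-0.05, adjusted p = 0.565). MT-ND6 had 308 and 311 CPM in Par, 393 and 464 in NTC, 284 and 262 in KO1.8, and 643 and 571 in KO5.2. It fell in KO1.8 (-0.43 ± 0.07) and rose in KO5.2 (0.75 ± 0.06). Over both lines it stood at 0.16 ± 0.05 (adjusted p = 0.023), a call lost without NTC replicate 1 (adjusted p = 0.108), KO1.8 replicate 1 (0.0833) or KO5.2 replicate 1 (0.142). MT-ND3 had 693 and 666 CPM in Par, 633 and 642 in NTC, 744 and 722 in KO1.8, and 445 and 482 in KO5.2, a gain of 0.15 ± 0.05 in KO1.8 and a loss in KO5.2 (-0.50 ± 0.05).

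Tested directly, KO5.2 differed from KO1.8 in 22 nuclear members higher and 13 lower, the latter with COX7B2, and in 7 of 13 mitochondrial members, where 41.3% of all genes were called, 20.6% higher and 20.7% lower; this contrast was chosen after the values of the KO lines had been seen. MT-ND6 (1.17 ± 0.08) and MT-CO1 (0.23 ± 0.06) were higher in KO5.2, and MT-CYB (-0.78 ± 0.07), MT-ND3 (-0.64 ± 0.05), MT-ND5 (-0.37 ± 0.07), MT-ND2 (-0.29 ± 0.06) and MT-ND1 (-0.19 ± 0.05) were lower. The mitochondrial ribosomal RNAs moved with this split. MT-RNR1 stood at -0.43 in KO1.8 and 0.17 in KO5.2 and MT-RNR2 at -0.43 and 0.51, all called, and they took 0.753 to 0.778% of counts in KO1.8, 1.37 to 1.39% in KO5.2 and 0.931 to 1.19% in controls. Their part in the result was not tested.

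**Figure D4:**
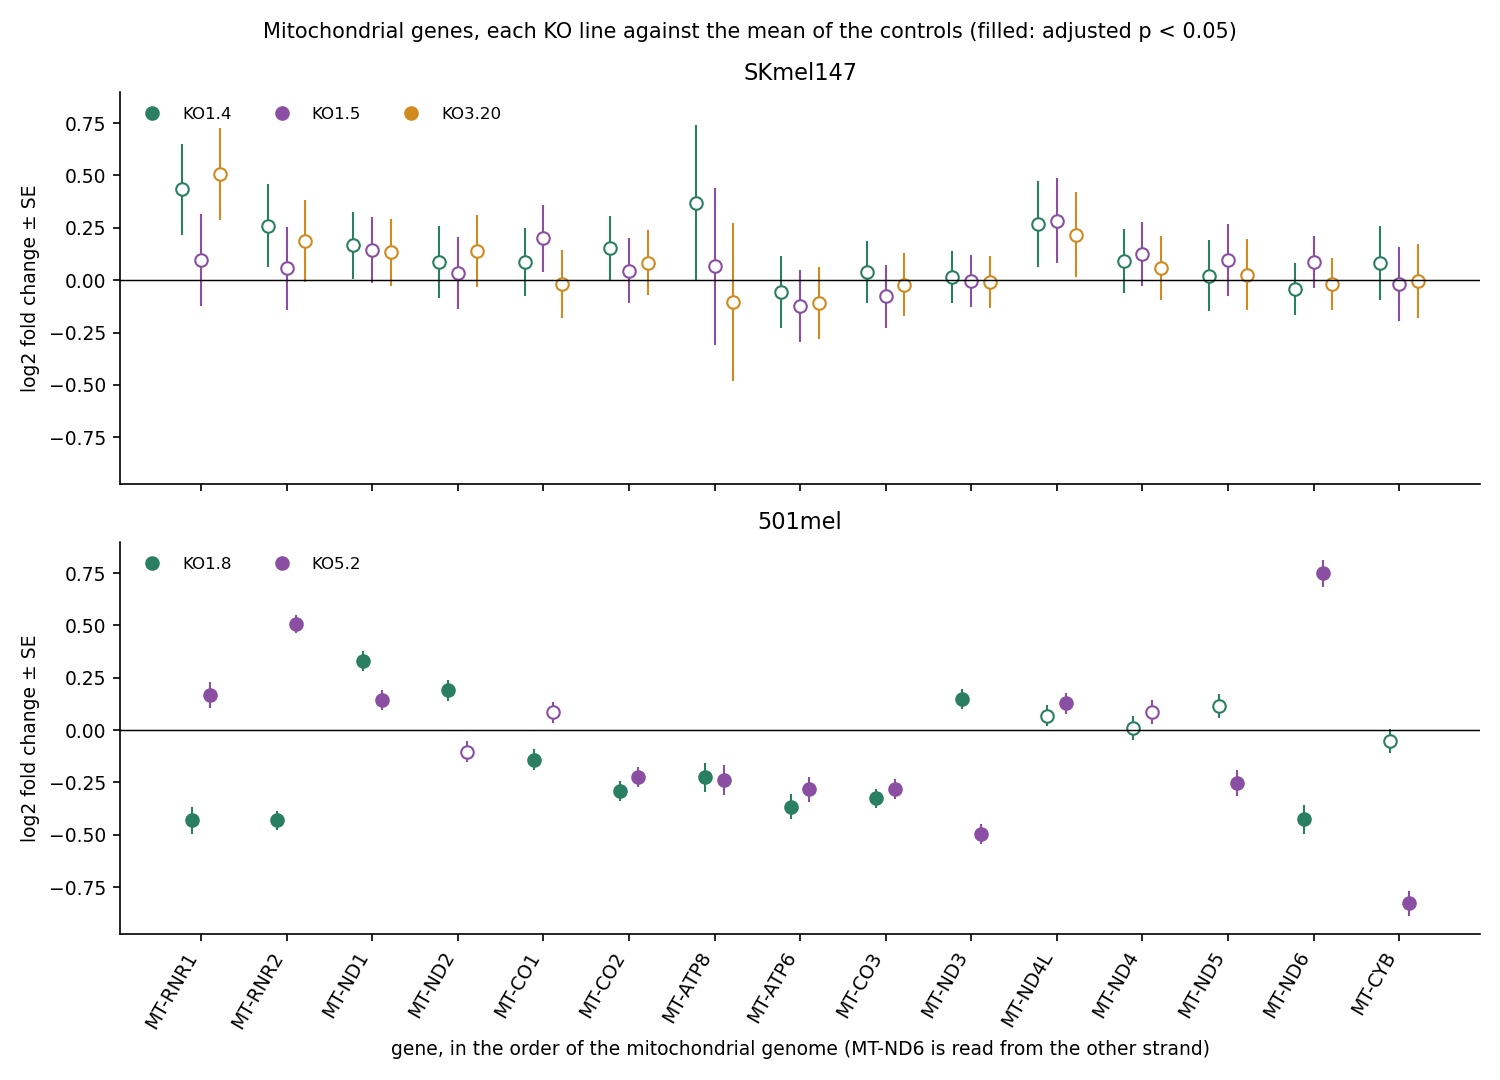
Log2 fold change with its SE (y axis) of each KO line against the mean of the control lines for the mitochondrial genes in genome order (x axis), filled where the adjusted p was under 0.05, SKmel147 above and 501mel below. In SKmel147 no point is filled, whereas in 501mel the KO lines coincide from MT-CO2 to MT-CO3 and part at the ribosomal RNAs, MT-ND3, MT-ND5, MT-ND6 and MT-CYB.

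Summed over the 13 mitochondrial members, 501mel controls held 56371 to 61424 CPM and KO lines 54481 to 55576, without overlap. The nuclear sum was 6526 to 7244 CPM in controls and 6814 to 7447 in KO lines, which overlapped. The ratio of the mitochondrial to the nuclear sum was 7.78 to 9.38 in controls and 7.32 to 8.16 in KO lines, overlapping as well. In SKmel147 the mitochondrial sum ranged more widely, from 40436 to 53468 CPM in controls and from 40242 to 58006 in KO lines, and the extremes of the KO range were the 2 libraries of KO1.4. Its nuclear sum was 4551 to 4950.1 CPM in controls and 4578 to 5207 in KO lines.

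**Figure D5:**
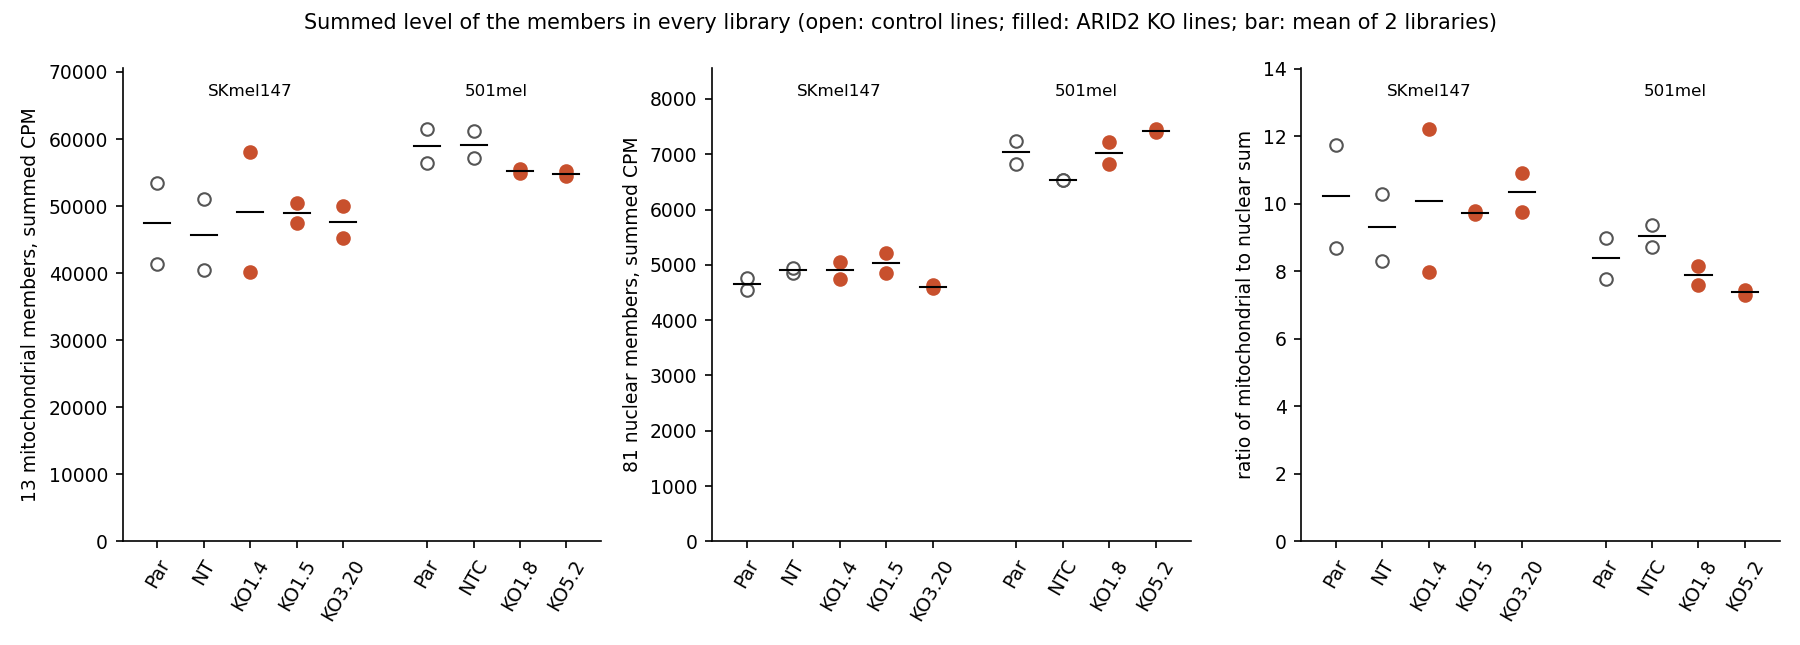
Summed CPM of the 13 mitochondrial members, of the 81 nuclear members, and the ratio of these sums (y axes, from 0) in every library of each line (x axis), open for control lines and filled for KO lines, with a bar at the mean of 2 libraries. The mitochondrial sum of the 501mel KO libraries lies below that of its controls, and in this sum and the ratio the libraries of SKmel147 KO1.4 lie farthest apart of all lines.

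In SKmel147 few members changed. Of 76 nuclear members tested, 4 rose and 2 fell, where 17.7% of all genes were called, 8.07% higher and 9.6% lower. The nuclear median was 0.01 against -0.01 over all genes, with 38 members on each side of 0 and 16 at an unadjusted p under 0.05. No member lay wholly above or below the controls, where 8.53% of all genes did, and none was called in every KO line, where 1.58% of all genes were higher and 1.8% lower. In KO1.4 alone 1 nuclear member was lower, where 8.77% of all genes were called, 3.97% higher and 4.8% lower. In KO1.5 alone 6 were higher and 1 lower (11.2% of all genes called, 5.42% higher and 5.77% lower), and in KO3.20 alone 1 was called in each direction (12.6%, 6.49% higher and 6.11% lower).

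UQCRB had 139 and 110.1 CPM in Par, 176 and 170.0 in NT, and 149, 170 and 234 as lowest, median and highest of the 6 KO libraries. The highest values were both libraries of KO1.5, KO1.4 overlapped with NT, and both libraries of KO3.20 lay between Par and NT. The fold change was 0.31 ± 0.08 (adjusted p = 0.0192), with 0.66 ± 0.11 in KO1.5 against a chromosome 8 median of 0.20 there. It was lost without the KO1.5 line (adjusted p = 0.338), and also without Par replicate 2 (0.0516), NT replicate 2 (0.0533) or KO1.4 replicate 2 (0.0662).

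NDUFA1 had 24.2 and 22.8 CPM in Par, 28.9 and 30.6 in NT, and 30.1, 33.5 and 36.8 as lowest, median and highest in KO lines. KO libraries lay above Par and touched the range of NT. Its value was 0.33 ± 0.08 (adjusted p = 0.0204), lost without Par replicate 2 (0.0502), NT replicate 1 (0.0615), KO1.4 replicate 1 (0.0626), KO1.5 replicate 2 (0.0543) or KO3.20 replicate 1 (0.0654). NDUFA1 and UQCRB were thus called higher in both cell lines, and ATP5E was called too (0.23 ± 0.07, adjusted p = 0.0462). None of these was called in every KO line of SKmel147, nor UQCRB in every KO line of 501mel. In SKmel147 ATP5E had 115 and 120 CPM in Par and 147 and 148 in NT. KO1.4 and KO1.5 lay above NT, and KO3.20, at 128 and 123, lay below it. ATP5A1, the alpha subunit of ATP synthase, gained 0.20 ± 0.06 (adjusted p = 0.0492), a call lost when any library but Par replicate 1 was left out (0.0673 to 0.146).

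ATP5B had 431 and 415 CPM in Par, 314 and 341 in NT, and 277, 304 and 319.8 as lowest, median and highest in KO lines. Par stood above all other lines, and NT overlapped with the KO range. It fell by 0.31 ± 0.06 on the log2 scale (adjusted p = 0.00551; 0.0521 without the KO3.20 line). SDHA had 102 and 115 CPM in Par, 78.0 and 81.9 in NT, and 74.5, 80.7 and 85.4 in KO lines, with NT inside the KO range (-0.23 ± 0.07, adjusted p = 0.0424). The SDHA call was lost when any library but Par replicate 1 was left out (adjusted p 0.0674 to 0.142), and that of ATP5E when any but KO1.4 replicate 1 and KO1.5 replicate 1 was (0.058 to 0.149).

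These members also differed between the control lines of SKmel147. NT against Par gave 0.48 ± 0.12 for UQCRB (adjusted p = 0.0353), -0.44 ± 0.11 for SDHA (0.0277) and -0.37 ± 0.10 for ATP5B (0.0381), and 0.34 and 0.33 for NDUFA1 and ATP5E, which did not pass. Of 76 nuclear members 3 were higher and 2 lower in NT (9.27% of all genes called, 3.82% higher and 5.45% lower), and against NT alone 0 of the nuclear members were called in KO lines (11.3% of all genes), with NDUFA1 at 0.15, UQCRB at 0.08, ATP5B at -0.13 and SDHA at -0.01. Against Par alone 11 rose and 5 fell (8.01% and 11.7% of all genes). Across nuclear members the fold change had a Spearman correlation of -0.27 with the GC content of the gene in this comparison, -0.48 in KO1.5 and -0.44 for NT against Par, against 0.04 in 501mel KO lines; genes are not independent replicates, and its part in the result was not tested.

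None of the 13 mitochondrial members was called in SKmel147 KO lines, with 0 at an unadjusted p under 0.05 in edgeR and 0 called by DESeq2. Their fold changes ran from -0.10 for MT-ATP6 to 0.26 for MT-ND4L, with a median of 0.09 and 11 of 13 above 0. MT-ND4L had 887 and 513 CPM in Par, 831 and 1108 in NT, and 817, 989 and 1179 as lowest, median and highest in KO lines (0.26 ± 0.15, adjusted p = 0.292), and it was called without Par replicate 1 (0.49, adjusted p = 0.0279). MT-CO3 had 4159 and 3868 CPM in Par, 3140.4 and 4172 in NT, and 3260.1, 3741 and 4655 in KO lines (-0.02 ± 0.11). The SE of a mitochondrial member was 0.09 to 0.28 here, against 0.04 to 0.06 in the same comparison of 501mel.

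The KO effect itself differed between the cell lines for 13 of 77 nuclear members, 11 of them higher in 501mel, and for 0 of 13 mitochondrial members, where 21.3% of all genes differed, 9.99% higher and 11.3% lower in 501mel. COX5B differed most, by -0.84 ± 0.10 (adjusted p = 1.83e-05): its SKmel147 value was 0.15 ± 0.08, with 33.7 and 39.4 CPM in Par, 43.0 and 48.3 in NT, and 40.1, 45.9 and 50.7 as lowest, median and highest in KO lines. UQCRFS1 differed by 0.59 ± 0.09 (adjusted p = 0.000149), UQCRC1 by 0.53 ± 0.10 (0.000806) and COX5A by 0.43 ± 0.08 (0.00104), and their SKmel147 values were -0.05 ± 0.07, -0.13 ± 0.08 and -0.04 ± 0.07. NDUFA1, which rose in both, rose more in 501mel (difference 0.45 ± 0.11, adjusted p = 0.00879). For the mitochondrial members 3 had an unadjusted p under 0.05 in edgeR and DESeq2 called 1, MT-CYB; 3 were called by edgeR without SKmel147 Par replicate 1, NT replicate 2 or KO1.4 replicate 2.

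With line sums as replicates no member's difference was called (unadjusted p under 0.05 for 6 nuclear members and 1 mitochondrial), and limma's voom, with the line as block, called COX5B and UQCRFS1. For ATP5B, ATP5E and UQCRB, called with the same sign in both cell lines, the difference was 0.08 ± 0.08, 0.02 ± 0.09 and -0.12 ± 0.10 and did not pass.

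Assembly factors and partners of the complexes, and subunits such as COX4I1 whose symbols the patterns do not match, are not members. They were called in both directions in 501mel, where 51.3% of all genes tested were, 24.7% higher and 26.5% lower. Of 17 complex I factors tested 4 rose and 3 fell, among them the assembly factors NDUFAF1 (0.51 ± 0.06) and TMEM126B (-0.39 ± 0.07). Of 4 complex II assembly factors 1 rose, SDHAF1 (0.71 ± 0.19), and 1 fell. For complex III and cytochrome c, 4 of 8 rose and none fell: UQCC1, an assembly factor for cytochrome b, gained 0.63 ± 0.04 (adjusted p = 4.29e-08) and CYC1, cytochrome c1, 0.43 ± 0.05. Of 27 complex IV factors 6 rose and 4 fell, from HIGD2A (0.47 ± 0.06) to COX19 (-0.47 ± 0.10), and of 6 for complex V 3 rose, such as the inhibitor ATPIF1 (0.21 ± 0.04), and 1 fell. The counts in SKmel147, where 8.07% of all genes were called higher and 9.6% lower, were in the same order 1 and 1 of 18, 0 of 4, 1 and 0 of 8, 0 of 27 and 0 of 6; at an unadjusted p under 0.05 edgeR gave 2, 5 and 1 in the lists without a call, and DESeq2 called 0 in each of them.

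Of 27 genes of mitochondrial transcription and RNA handling 5 rose and 9 fell in 501mel, a share close to the 51.3% of all genes called. MTPAP, the mitochondrial poly(A) polymerase, fell by 0.60 ± 0.05 on the log2 scale (adjusted p = 4.15e-07) and FASTKD2 by 0.41 ± 0.05, while HSD17B10, a part of mitochondrial RNase P, gained 0.33 ± 0.04 and LRPPRC, which stabilises mitochondrial mRNAs, 0.12 (adjusted p = 0.0246), lost without NTC replicate 2, KO1.8 replicate 2 or KO5.2 replicate 2 (0.0576 to 0.146). Libraries were made from polyadenylated RNA, and the part of polyadenylation in the mitochondrial levels was not tested. Neither POLRMT, the mitochondrial RNA polymerase (0.05), nor TFAM, its activator (-0.02), was called. Of 15 replication and maintenance genes 4 rose and 2 fell, below that share. In SKmel147, where 17.7% of all genes were called, 0 of the 27 and 2 of the 15 were called, RRM2B higher (0.63 ± 0.13) and SLC25A4 lower (-0.46 ± 0.08), with 2 of the 27 at an unadjusted p under 0.05 and 0 called by DESeq2.

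Of 17 regulators of respiratory genes 3 rose and 7 fell in 501mel, where 24.7% and 26.5% of all genes did. ESRRG, an orphan receptor known to drive oxidative genes, fell from 2.47 to 3.36 CPM in controls to 1.31 and 1.53 in KO1.8 and 0.0506 and 0.0488 in KO5.2 (-3.44 ± 0.27, a fitted value near 0 counts), and NRIP1, a corepressor of such genes, was lower too (-0.58 ± 0.06). PPARGC1A was at 206 to 284 CPM in 501mel controls and 1.66 to 3.38 in SKmel147 controls (log2 difference 6.56 ± 0.15), and KO lines showed no call in 501mel (-0.02) or in SKmel147 (-0.55, adjusted p = 0.122). In SKmel147, where 8.07% of all genes rose and 9.6% fell, 2 of 18 regulators rose and 2 fell, among them MYC (-0.54 ± 0.10) and GABPA, a factor of respiratory promoters (0.43 ± 0.11). The GABPA call was lost without Par replicate 2, NT replicate 2, KO1.4 replicate 2, KO1.5 replicate 1 or KO3.20 replicate 2 (adjusted p 0.0504 to 0.0746).

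Tricarboxylic acid cycle genes rose in 9 of 18 cases and fell in 2 in 501mel, where 24.7% of all genes rose and 26.5% fell, with PDHA1 of pyruvate dehydrogenase up (0.45 ± 0.04) and CS, citrate synthase, down (-0.39 ± 0.04). In SKmel147, where 8.07% of all genes rose and 9.6% fell, 1 rose, the mitochondrial isocitrate dehydrogenase IDH2 (0.79 ± 0.21), and 3 fell. The IDH2 call was lost without Par replicate 1, NT replicate 1, KO1.4 replicate 2, KO1.5 replicate 2 or KO3.20 replicate 1 (adjusted p 0.0556 to 0.0752). Mitochondrial ribosomal proteins rose in 25 of 73 cases and fell in 12 in 501mel, with 1 and 3 of 74 in SKmel147. Cytosolic ribosomal proteins went mainly down in 501mel, 42 of 81 against 14 up, and in SKmel147 6 rose and 1 fell. The median of the cytosolic ribosomal proteins in 501mel was -0.11, with 0.02 in KO1.8 and -0.26 in KO5.2. DESeq2 called 16 of them higher and 10 lower in KO1.8, where it called 2490 and 2387 of 16230 genes. For KO5.2 it called 7 of them higher and 55 lower, beside 3481 and 3452 of 16230 genes. The fall was thus seen in KO5.2 and not in KO1.8. Of the mitochondrial ribosomal RNAs MT-RNR1 fell in 501mel (-0.13 ± 0.05, adjusted p = 0.0425; 0.0596 to 0.242 without Par replicate 2, NTC replicate 2, either KO1.8 library or KO5.2 replicate 2), and neither was called in SKmel147, with 0 at an unadjusted p under 0.05 and 0 called by DESeq2.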

How the data were processed

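The deposited values were raw counts of reads for every gene symbol and library; the authors made them with STAR 2.6.0 and featureCounts on GRCh37 or hg19, per the submitters' processing notes. Annotation release, strand setting and handling of multi-mapped reads: not given in the sources used here. GENCODE 29, which is on another build, served only for chromosome, GC content, median transcript length and the mitochondrial bases shown; it matched 35328 of 56629 symbols, 1338 through an older symbol, and all 94 members. Promoters came from RefSeq.

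The tests used edgeR 4.0.16 under R 4.3.3. Within a cell line, genes were filtered with filterByExpr by line and scaled with TMM; a model with a mean for every line was fitted, and its contrasts went through the quasi-likelihood test, with BH adjustment over all genes tested. KO lines and control lines were averaged with equal weight per line. All 18 libraries were fitted jointly for the interaction of KO and cell line, and levels are CPM with the TMM factors of that fit. Depth ranged from 16749707 to 35670140 counts. Of the nuclear members 76 passed the low-count filter in each cell line and 77 in the joint fit, as did all 13 mitochondrial members; a member that passed through 1 line alone, such as COX7B2, had to differ there.

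Named were all mitochondrial members, the called nuclear members with the smallest p per complex, direction and cell line, up to 5 per direction called in every KO line with the largest smallest change, 3 members in either direction ranked by p for the interaction and 3 for the contrast between controls, and the restricted forms; others were named after their values were seen. From each list outside the members, up to 2 called genes per direction were named by smallest p, with others added after their values were seen. The members, the gene lists (assembly factors per complex, mitochondrial transcription and replication, tricarboxylic acid cycle, regulators, mitochondrial ribosomal RNAs and proteins, cytosolic ribosomal proteins, cell type markers) and the comparisons were chosen with earlier results of these data known.

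Alternatives were DESeq2 1.42.0 size factors and Wald test, no filter, the replicate number as block, GC and length correction with and without that block (splines with 4 degrees of freedom), scaling without mitochondrial genes, each control alone, line sums as replicates, limma 3.58.1 voom with the line as block, and leaving out each library or KO line. The scripts were tested on simulated counts.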

Additional observations from a re-analysis of the deposited data

Results flagged for a closer look

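For 13 of 77 nuclear members the KO effect differed between the cell lines, where 21.3% of all genes tested did. What singled them out was edgeR's quasi-likelihood test of the interaction with BH adjustment. On the log2 scale, as 501mel minus SKmel147, the difference was -0.84 for COX5B, 0.59 for UQCRFS1, 0.53 for UQCRC1, 0.43 for COX5A, 0.45 for UQCR10 and 0.35 for ATP5G3. It was 0.36 for COX6B1, 0.45 for NDUFA1, 0.30 for SDHA, 0.55 for NDUFS7, -0.34 for NDUFB1, 0.53 for NDUFB7 and 0.32 for ATP5SL. The SDHA difference combines a call in SKmel147 (-0.23) with a value in 501mel that did not pass (0.09). Leaving out a single library ended the call for NDUFB1 in 11 of 18 cases, for NDUFS7 in 12 and for ATP5SL and NDUFB7 in 14 each.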

How the results depend on the processing

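The counts of nuclear members called in SKmel147 KO lines, 4 higher and 2 lower, moved with most choices: 12 and 7 with the GC and length correction, 11 and 5 against Par alone, and 0 and 0 against NT alone, with line sums as replicates or with voom. Without the line KO1.4 or KO1.5 they were 1 and 1, and without KO3.20 0 were lower. In 501mel 32 and 4 became 0 and 0 with line sums and 1 and 1 with voom; 20 were higher against Par alone and 7 lower without KO1.8. Its mitochondrial members, 2 higher and 6 lower, became 0 and 0 with line sums or voom, 1 was higher against NTC alone, and 4 were lower when MT-ATP6 and MT-ATP8 were not counted. Without the low-count filter 1 mitochondrial member was higher in SKmel147.

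Between the SKmel147 controls 5 nuclear members were called, 9 without the filter and 13 with the GC and length correction, and 0 mitochondrial, 2 without the filter. Between the 501mel controls 17 nuclear members were called, 8 by DESeq2, and 4 mitochondrial, 2 with the correction. For the difference of the KO effect 13 nuclear members were called, 22 with the correction, 0 with line sums and 2 with voom, and 0 mitochondrial, 1 by DESeq2 and 5 without the filter. Between control lines of the cell lines 12 mitochondrial members were called, 10 without counting MT-ATP6 and MT-ATP8.

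Leaving out 1 library at a time gave 1 to 6 higher and 1 to 4 lower nuclear members in SKmel147, and 0 to 1 and 0 to 0 mitochondrial. In 501mel it gave 26 to 41 and 3 to 5 nuclear and 1 to 3 and 6 to 6 mitochondrial. Between controls it gave 1 to 9 nuclear and 0 to 2 mitochondrial in SKmel147, and 4 to 20 and 2 to 5 in 501mel, where the nuclear count was 5 without Par replicate 2, 4 without NTC replicate 1 and 6 without NTC replicate 2. The difference had 9 to 18 and 0 to 3, and the controls of the cell lines 59 to 61 and 12 to 13.

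Over all genes, the differences between replicate numbers 1 and 2 correlated between lines at -0.27 to 0.32 in SKmel147 and -0.03 to 0.14 in 501mel. In each 501mel line, though, number 2 had the lower mitochondrial sum and the higher nuclear sum. For Par the mitochondrial sums were 61424 and 56371 CPM. Whether the numbers pair the libraries thus stays unsettled for the members. With the replicate number as a block SKmel147 KO lines had 2 nuclear members higher and 1 lower, 13 and 7 with the GC and length correction as well; the 501mel controls differed in 29, the SKmel147 controls in 13 with the correction, and the KO effect in 21 with it.

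Signs turned in 501mel without the line KO5.2 for UQCRB (-0.0087), NDUFB1 (0.10), MT-ND3 (0.15) and MT-ND6 (-0.43), and for MT-ND6 against NTC alone (-0.0704). Of the other values for named genes under these alternatives, 2028 kept sign and call, 176 lost the call and 45 gained one. The cause of these changes was not tested beyond what the smaller samples imply. Each line had 2 libraries, so precision rests on these more than on depth.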
